A study of Mus musculus with 22 samples.

Results

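Expression of 36 genes of carbohydrate metabolism was examined in the right ventricle (RV) and left ventricle (LV) of neonatal mice. The genes encode the enzymes of glycolysis (with the bifunctional phosphofructokinase 2 enzymes that regulate it), glycogen synthesis and breakdown, the pentose phosphate pathway and the glycerol phosphate shuttle. They were taken by gene symbol, by matching the Ensembl identifiers of the tables to the GENCODE mouse annotation on mm10, and the rule itself uses no measured value. All 36 were found among the 49670 genes of the RV table and the 49671 genes of the LV table.

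CD1 mice were operated on postnatal day 1 and their hearts were harvested 7 days later. Neonatal pulmonary artery banding (nPAB), a constriction of the pulmonary artery, loads the RV directly, and the controls had a Sham operation. The RV nPAB and LV nPAB groups held 6 mice each (numbered 5, 6, 7, 8, 10 and 11), and the RV Sham and LV Sham groups held 5 each (numbered 9 to 13). By the labels, each of the 11 mice gave 1 RV and 1 LV library of total RNA, all with the same batch label. Litters were not stated, and the identical numbers in the nPAB and Sham groups belong to different animals.

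Glycolysis splits glucose into pyruvate and yields ATP without oxygen, and lactate dehydrogenase interconverts pyruvate and lactate. Glycogen is the glucose store of the cardiomyocyte, the pentose phosphate pathway draws on glucose 6-phosphate to make NADPH and ribose 5-phosphate, and the glycerol phosphate shuttle carries cytosolic reducing equivalents to the mitochondria. The fetal and newborn heart relies heavily on glycolysis and lactate and moves to fatty acid oxidation after birth; many glycolytic steps are served by a muscle isoform and by isoforms shared with other tissues.

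Libraries held 7109050 to 11334423 reads assigned to genes. In 9 of the 11 mice the sex-linked genes of the RV and LV libraries matched, and in nPAB mice 6 and 7 they did not. By Xist and Ddx3y, the RV library of mouse 6 was female and its LV library male. For mouse 7 the RV library was male and the LV library female. The paired libraries of these 2 mice cannot be taken as coming from the same animal, and an exchange between them was not tested. The counts of called members, the isoform ratios and the response difference are given with and without both mice. Summed markers of ventricular cardiomyocytes overlapped between nPAB and Sham in both ventricles, as did those of fibroblasts (24467 to 37648 normalized counts in RV nPAB and 33549 to 43241 in RV Sham), endothelial cells, smooth muscle and pericytes, macrophages and red cells. By gene, all 6 fibroblast markers had negative RV log2 fold changes (median -0.25), 1 of them called. In the LV 4 of the 6 were positive and none was called. Of the 7 ventricular cardiomyocyte markers, 1 was called higher and 2 lower in the RV. The summed atrial list, which contains Nppa, was 3147 to 16232 normalized counts in RV nPAB and 184 to 2526 in RV Sham. All 5 atrial markers had positive RV log2 fold changes (1.33 to 6.09, median 1.76), 1 of them called. In the LV 2 of the 4 tested were positive, and 1 was called. Of 43 marker genes tested over all lists, 3 were higher and 5 lower in RV nPAB, against 11.1% and 10.8% of all tested genes. The higher ones were 1 each of the ventricular cardiomyocyte, atrial and red cell lists. The lower ones were 2 ventricular cardiomyocyte markers and 1 each of the fibroblast, macrophage and neuronal or Schwann lists. In LV nPAB 2 were higher and none lower, against 4.76% and 4.55%. These were 1 ventricular cardiomyocyte and 1 atrial marker. Of the 6 skeletal muscle markers, the regulators Myod1 and Myog were at 0 in every library. In RV nPAB 4 of the 6 had a read, against 2 in RV Sham, where Myh1 and Myh4 were also at 0. In each LV group 3 had a read. The summed list was 18402 to 25056 normalized counts in RV nPAB and 15827 to 22547 in RV Sham. Only 1 of the 6 reached the mean of 10 normalized counts needed for testing in the RV (log2 fold change 0.26, not called). The sum is therefore nearly all of that gene and does not describe the list as a whole. In bulk tissue, fewer cells of a type and less RNA per cell cannot be told apart. The part of these values in the results below was not tested.

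The promoters of the 4 members called in both ventricles with the smallest p in the RV are shown first, since they sit at genes that moved together. Each window runs from 250 bases before to 50 after the start of the RefSeq gene (GRCm38.p6), on the gene's own strand. Capitals mark ACGTG, a form of the core recognised by hypoxia-inducible factors, or its reverse complement CACGT. The form GCGTG was not searched for and is neither marked nor counted. Where ACGTG and CACGT overlap the capitals form CACGTG, an E-box, which holds 2 matches. Lactate dehydrogenase A (Ldha, first of its 2 windows, chr7:46845554-46845853, plus strand), platelet-type phosphofructokinase (Pfkp, chr13:6648722-6649021, minus strand), triosephosphate isomerase (Tpi1, chr6:124814109-124814408, minus strand) and muscle phosphoglycerate mutase (Pgam2, chr11:5803747-5804046, minus strand) read as follows.
Ldha: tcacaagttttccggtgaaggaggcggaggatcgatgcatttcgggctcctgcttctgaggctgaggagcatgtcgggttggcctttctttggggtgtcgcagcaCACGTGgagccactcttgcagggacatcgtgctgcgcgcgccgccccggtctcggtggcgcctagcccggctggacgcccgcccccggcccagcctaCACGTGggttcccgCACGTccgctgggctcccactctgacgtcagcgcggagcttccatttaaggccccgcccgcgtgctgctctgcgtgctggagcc
Pfkp: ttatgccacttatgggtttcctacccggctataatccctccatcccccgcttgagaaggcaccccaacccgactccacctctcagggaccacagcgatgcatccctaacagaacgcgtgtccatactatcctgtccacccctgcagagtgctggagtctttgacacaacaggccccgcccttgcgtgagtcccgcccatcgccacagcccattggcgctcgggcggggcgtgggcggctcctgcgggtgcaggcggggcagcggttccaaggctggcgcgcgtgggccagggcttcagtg
Tpi1: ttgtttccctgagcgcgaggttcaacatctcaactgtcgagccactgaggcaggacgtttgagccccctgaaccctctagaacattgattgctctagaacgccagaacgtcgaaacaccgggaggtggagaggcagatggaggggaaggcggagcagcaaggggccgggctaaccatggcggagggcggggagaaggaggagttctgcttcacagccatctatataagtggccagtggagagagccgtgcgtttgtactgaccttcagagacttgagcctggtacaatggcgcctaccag
Pgam2: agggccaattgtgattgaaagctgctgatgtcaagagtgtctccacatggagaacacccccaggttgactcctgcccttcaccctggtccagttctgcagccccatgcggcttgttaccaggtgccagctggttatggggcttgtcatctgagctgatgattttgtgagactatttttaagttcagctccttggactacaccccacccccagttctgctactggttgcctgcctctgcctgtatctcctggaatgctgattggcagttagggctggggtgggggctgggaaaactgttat
The Ldha window held 5 matches, 4 of them in a pair of CACGTG sequences, and its second window, like the Pfkp, Tpi1 and Pgam2 windows, held none. Among all 32851 promoter windows, 6447 (19.6%) held at least 1 match and 7.15% held CACGTG. Of the 55 windows of members, 23 (41.8%) held a match. By gene, 5886 of 27025 (21.8%) had a match in any window, against 19 of the 35 members that could be matched to the promoter table (54.3%). Genes with more windows have more places for a match in the count by gene. Among members, the motif was present in 12 of the 23 that rose in the RV and in 7 of the other 12. A match is a description of letters in this window and not of binding.

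In RV nPAB against RV Sham, most genes of glycolysis rose, together with parts of the glycogen and pentose phosphate branches. Of the 35 members with a mean of at least 10 normalized counts, 23 were higher, 1 (Pfkfb1) was lower and 11 did not pass the test at an adjusted p of 0.05; Pfkfb4 was below the limit and was not tested. Over all 13660 genes tested, 11.1% were higher and 10.8% lower. The median log2 fold change of the 35 members was 0.61, and that of all tested genes was 0.00. The normalized counts of the 6 nPAB and 5 Sham libraries did not overlap for 18 members that were higher and 1 that was lower, against 6.84% and 6.06% of all tested genes. Without mice 6 and 7 there were again 23 higher and 1 lower, of which 23 were among the original 24: Pfkfb3 no longer passed (adjusted p = 0.0752) and Eno3 did (log2 fold change 0.28, adjusted p = 0.00915).

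In LV nPAB against LV Sham, 15 members were higher, none was lower and 20 did not pass, while 4.76% of 13528 tested genes were higher and 4.55% lower. The median log2 fold change was 0.28 for the members and -0.0077 for all genes. The nPAB values lay above the Sham values without overlap for 13 members, against 3.38% of all genes. All 15 LV members were also higher in the RV, and the LV change was the smaller of the 2 estimates for each. Without mice 6 and 7, 13 of the 15 remained, Ugp2 and Pfkfb3 being lost (adjusted p = 0.0696 and 0.184). Normalized counts come from separately scaled RV and LV tables, and their levels are compared only within a ventricle.

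**Figure D1:**
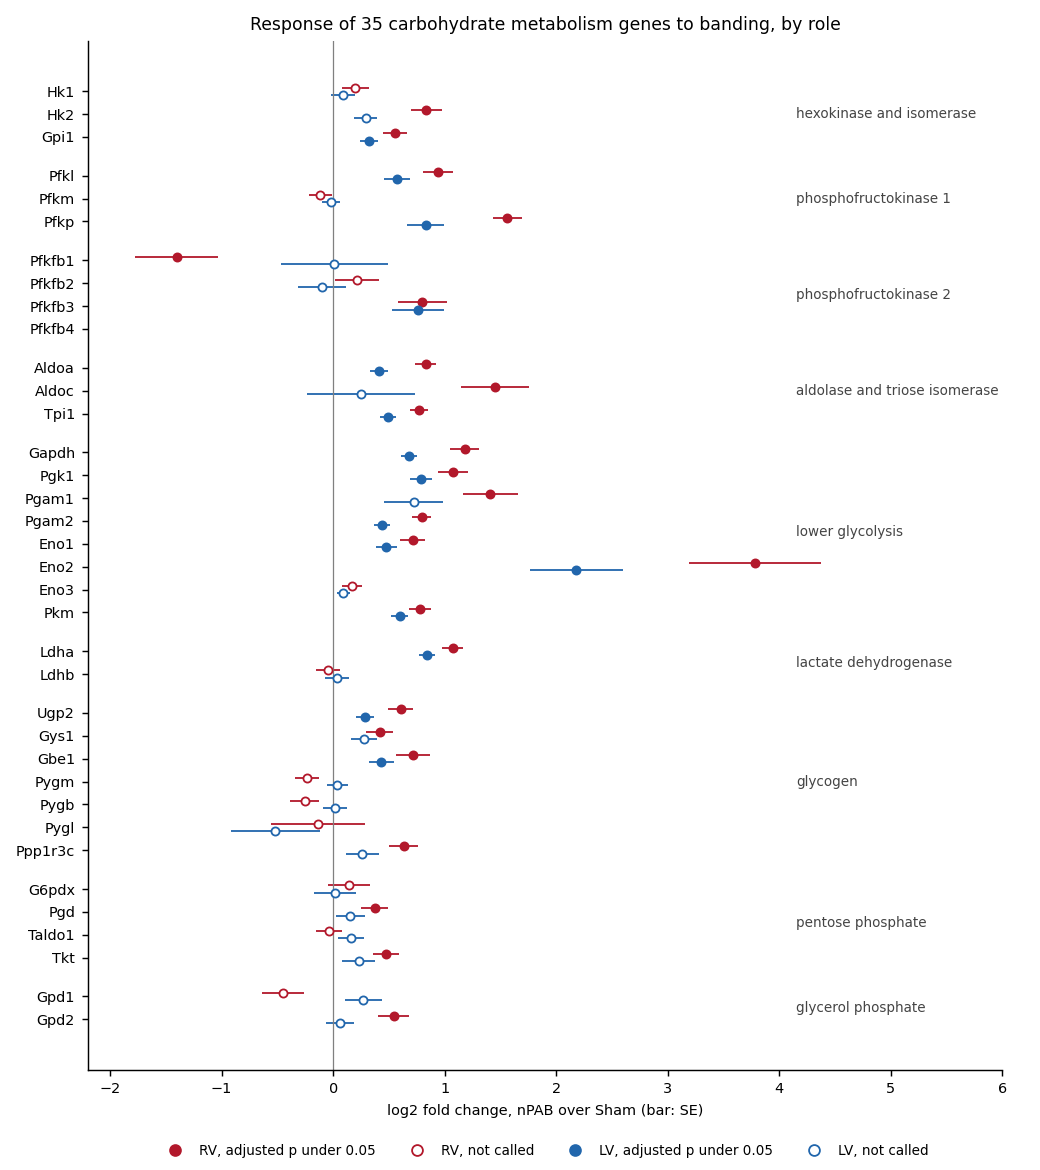
Log2 fold changes of nPAB over Sham (horizontal axis, bars are SE) for 35 members ordered by role, with the RV in red and the LV in blue; filled points passed an adjusted p of 0.05, and Pfkfb4 was not tested. Filled points lie right of 0 except Pfkfb1 in the RV at -1.40, and Pfkm, Eno3, Ldhb and Pygm have open points in both ventricles.

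The first steps of glycolysis rose in the RV through Hk2 and Gpi1. Hexokinase 2 (Hk2), the insulin-responsive muscle hexokinase, had 943 to 1689 (median 1449) normalized counts in RV nPAB, against 771, 817, 681, 647 and 933 in RV Sham. This was 1.78-fold (log2 0.83 ± 0.14 SE, adjusted p = 0.000433), and every nPAB library was above every Sham library. In the LV, Hk2 had 817 to 1229 (median 1061) normalized counts in nPAB and 819, 976, 721, 819 and 909.6 in Sham. The LV groups overlapped, and the LV difference did not pass (log2 fold change 0.29 ± 0.10 SE, adjusted p = 0.0808) except without nPAB mouse 5 (adjusted p = 0.0230).

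Glucose-6-phosphate isomerase (Gpi1), which makes fructose 6-phosphate, had 4194 to 7354 (median 5299) normalized counts in RV nPAB, against 3776, 3650.4, 3460.2, 3477 and 3735 in RV Sham. It rose 1.47-fold (log2 0.56 ± 0.11 SE, adjusted p = 0.00140), without overlap. In the LV its counts were 4102 to 5653 (median 4349) in nPAB and 3738, 3474, 3803, 3524 and 3568 in Sham. The LV rise was 1.25-fold (log2 0.32 ± 0.077 SE, adjusted p = 0.0134), and the groups were again apart. Hexokinase 1 (Hk1), the more widely expressed isoenzyme, did not pass in either ventricle, with a log2 fold change of 0.20 ± 0.12 (SE, adjusted p = 0.269) in the RV and a log2 fold change of 0.085 ± 0.11 (SE, adjusted p = 0.677) in the LV.

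Phosphofructokinase 1 catalyses the committed step of glycolysis and is built from liver (Pfkl), muscle (Pfkm) and platelet (Pfkp) subunits, of which the liver and platelet genes rose in both ventricles. Pfkp had 1958 to 3533 (median 2491) normalized counts in RV nPAB, against 769.97, 798, 967, 881 and 998 in RV Sham. Its lowest nPAB library was well above its highest Sham library, a rise of 2.95-fold (log2 1.56 ± 0.13 SE, adjusted p = 1.84e-06). In the LV, Pfkp had 1249 to 2406 (median 1872) in nPAB and 979.7, 1042, 921, 1011 and 1059 in Sham. It was higher there by 1.78-fold (log2 0.83 ± 0.17 SE, adjusted p = 0.00775), with 2 nPAB libraries close to the Sham values.

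Pfkl had 486 to 893 (median 757) normalized counts in RV nPAB, against 406, 391, 291, 396 and 389 in RV Sham, and 463 to 597 (median 564) in LV nPAB, against 400.3, 446, 319, 283 and 395 in LV Sham. It rose 1.92-fold (log2 0.94 ± 0.13 SE, adjusted p = 8.00e-05) in the RV and 1.49-fold (log2 0.57 ± 0.12 SE, adjusted p = 0.00499) in the LV, with no overlap in either. Pfkm did not pass, with a log2 fold change of -0.11 ± 0.11 (SE, adjusted p = 0.482) in the RV and a log2 fold change of -0.022 ± 0.080 (SE, adjusted p = 0.898) in the LV.

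The phosphofructokinase 2 enzymes set the level of fructose 2,6-bisphosphate, an activator of phosphofructokinase 1, and in the RV 1 of the 4 genes (Pfkfb1) fell and 1 (Pfkfb3) rose. Pfkfb1, named for liver and muscle, had 5.61 to 17.0 (median 11.1) normalized counts in RV nPAB, against 45.7, 25.2, 28.6, 34.0 and 21.1 in RV Sham. It fell to 0.378 times the Sham level (log2 -1.40 ± 0.37 SE, adjusted p = 0.0103), and the groups did not overlap. The counts were low, 72 reads over the 6 RV nPAB libraries and 155 over the 5 RV Sham libraries. In the LV it had 6.04 to 23.1 (median 13.0) in nPAB and 26.3, 14.5, 17.3, 4.30 and 10.8 in Sham, overlapping ranges with no difference passing the test (log2 fold change 0.0085 ± 0.48 SE, adjusted p = 0.995).

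Pfkfb3, the isoform with the highest ratio of kinase to phosphatase activity, had 91.6 to 211 (median 108) normalized counts in RV nPAB and 59.5, 95.4, 58.7, 63.2 and 66.9 in RV Sham. The change was 1.74-fold (log2 0.80 ± 0.22 SE, adjusted p = 0.0139), with 1 Sham library, mouse 10, inside the nPAB range. In the LV, Pfkfb3 had 72.1 to 137 (median 101) in nPAB and 80.8, 47.1, 40.6, 51.6 and 84.0 in Sham. The LV groups overlapped, and the call (log2 fold change 0.76 ± 0.24 SE, adjusted p = 0.04998) lay at the threshold and was lost in 13 of 21 alternatives, among them leaving out any of Sham mice 10, 11 or 12 or nPAB mice 6, 7, 8 or 11 (adjusted p 0.0557 to 0.126). Pfkfb2, the heart isoform, did not pass in the RV (log2 fold change 0.22 ± 0.20 SE, adjusted p = 0.482) or the LV (log2 fold change -0.10 ± 0.22 SE, adjusted p = 0.821).

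All 3 genes of the aldolase and triose isomerase steps rose in the RV, and Aldoa and Tpi1 also in the LV. Tpi1, which interconverts the triose phosphates, had 3631 to 4927 (median 4342) normalized counts in RV nPAB, against 2408, 2402, 2570.4, 2507 and 2599 in RV Sham. It rose 1.71-fold (log2 0.77 ± 0.079 SE, adjusted p = 3.61e-06), and its Sham libraries lay in a narrow band below all nPAB libraries. In the LV, Tpi1 had 3104 to 3856 (median 3711) in nPAB and 2535, 2489.6, 2743, 2583 and 2537 in Sham, again without overlap and 1.41-fold (log2 0.49 ± 0.069 SE, adjusted p = 0.000242).

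Muscle aldolase (Aldoa) had 15261 to 23689 (median 18685) normalized counts in RV nPAB, against 10355, 12173, 9503, 10291 and 10175 in RV Sham. The RV groups were apart, with a rise of 1.78-fold (log2 0.83 ± 0.094 SE, adjusted p = 1.03e-05). In the LV it had 12426 to 17801 (median 16784) in nPAB and 11557, 13156, 11589, 12071 and 11759.8 in Sham. The LV rise was 1.33-fold (log2 0.41 ± 0.082 SE, adjusted p = 0.00396), with the nPAB library of mouse 10 inside the Sham range. Brain-type aldolase (Aldoc), with 36 to 76 reads per RV nPAB library and 11 to 22 per RV Sham library, rose 2.73-fold (log2 1.45 ± 0.31 SE, adjusted p = 0.00220) in the RV and did not pass in the LV (log2 fold change 0.25 ± 0.48 SE, adjusted p = 0.798).

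Of the 8 genes of lower glycolysis, 7 rose in the RV and 6 in the LV. Pgam2, which moves the phosphate of 3-phosphoglycerate, had 7367 to 10111 (median 8399) normalized counts in RV nPAB, against 4959.7, 5293, 4426, 4611 and 5166 in RV Sham. It rose 1.73-fold (log2 0.79 ± 0.087 SE, adjusted p = 7.26e-06), with all nPAB libraries above all Sham libraries. Its LV counts were 6583 to 8339 (median 7466) in nPAB and 5367, 5745, 5375, 5040.01 and 5947 in Sham, a rise of 1.35-fold (log2 0.44 ± 0.073 SE, adjusted p = 0.000993) without overlap.

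Gapdh, the NADH-producing dehydrogenase of glycolysis and a common reference gene, had 8604 to 16151 (median 12414) normalized counts in RV nPAB, against 5267, 6216, 5239, 5341 and 5231 in RV Sham. This was a rise of 2.27-fold (log2 1.18 ± 0.13 SE, adjusted p = 1.69e-05), and the groups did not overlap. LV libraries had 7892 to 10439.97 (median 9519) in nPAB and 5486, 6434, 5674, 5980.4 and 5801 in Sham, also apart, with a rise of 1.61-fold (log2 0.68 ± 0.073 SE, adjusted p = 2.51e-05).

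The other members of lower glycolysis spanned a wide range of change. Neuronal enolase (Eno2) had the largest fitted change of any member in both ventricles, a log2 fold change of 3.78 ± 0.59 (SE, adjusted p = 0.000447) in the RV and a log2 fold change of 2.18 ± 0.42 (SE, adjusted p = 0.00297) in the LV, from a low level of 44 reads over all RV Sham libraries and 33 over all LV Sham libraries. Its normalized counts were 38.2 to 263 (median 106) in RV nPAB, against 1.06, 19.7, 13.5, 3.89 and 4.70 in RV Sham, with no overlap but wide spread in each group. Pgam1, the non-muscle mutase, rose 2.65-fold (log2 1.41 ± 0.25 SE, adjusted p = 0.000515) in the RV, also from a low level, and did not pass in the LV (log2 fold change 0.72 ± 0.26 SE, adjusted p = 0.0917). Pgk1, the first ATP-producing step, rose 2.10-fold (log2 1.07 ± 0.13 SE, adjusted p = 2.97e-05) in the RV and 1.73-fold (log2 0.79 ± 0.10 SE, adjusted p = 8.79e-05) in the LV. Pkm, which makes pyruvate, rose 1.71-fold (log2 0.78 ± 0.10 SE, adjusted p = 2.85e-05) and 1.51-fold (log2 0.60 ± 0.078 SE, adjusted p = 0.000146) in the RV and LV, and non-muscle enolase (Eno1) rose 1.64-fold (log2 0.71 ± 0.11 SE, adjusted p = 0.000233) and 1.39-fold (log2 0.48 ± 0.093 SE, adjusted p = 0.00354). Muscle enolase (Eno3) did not pass in either ventricle (log2 fold change 0.17 ± 0.089 SE, adjusted p = 0.187 in the RV; log2 fold change 0.093 ± 0.061 SE, adjusted p = 0.375 in the LV), except in the RV without nPAB mouse 6 (adjusted p = 0.0294) or without mice 6 and 7, as given above.

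The lactate dehydrogenase subunits parted. Ldha, the subunit that predominates in glycolytic tissue, had 7682 to 11857 (median 10464) normalized counts in RV nPAB, against 4402, 4902, 5258, 4652 and 4807 in RV Sham. It rose 2.10-fold (log2 1.07 ± 0.095 SE, adjusted p = 8.63e-07), and the lowest nPAB library exceeded the highest Sham library. In the LV, Ldha had 7052 to 9124 (median 8103) in nPAB and 4358, 4403, 4558, 4457 and 4532 in Sham, where the 5 Sham libraries lay close together and below all nPAB libraries, a rise of 1.79-fold (log2 0.84 ± 0.073 SE, adjusted p = 2.31e-06). Ldhb, the heart subunit, had 3823 to 6325 (median 5298) in RV nPAB and 5701, 5130.3, 4916, 5686 and 5361 in RV Sham. The Sham values fell within the nPAB range, and neither the RV (log2 fold change -0.047 ± 0.11 SE, adjusted p = 0.808) nor the LV (log2 fold change 0.033 ± 0.11 SE, adjusted p = 0.890) difference passed.

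**Figure D2:**
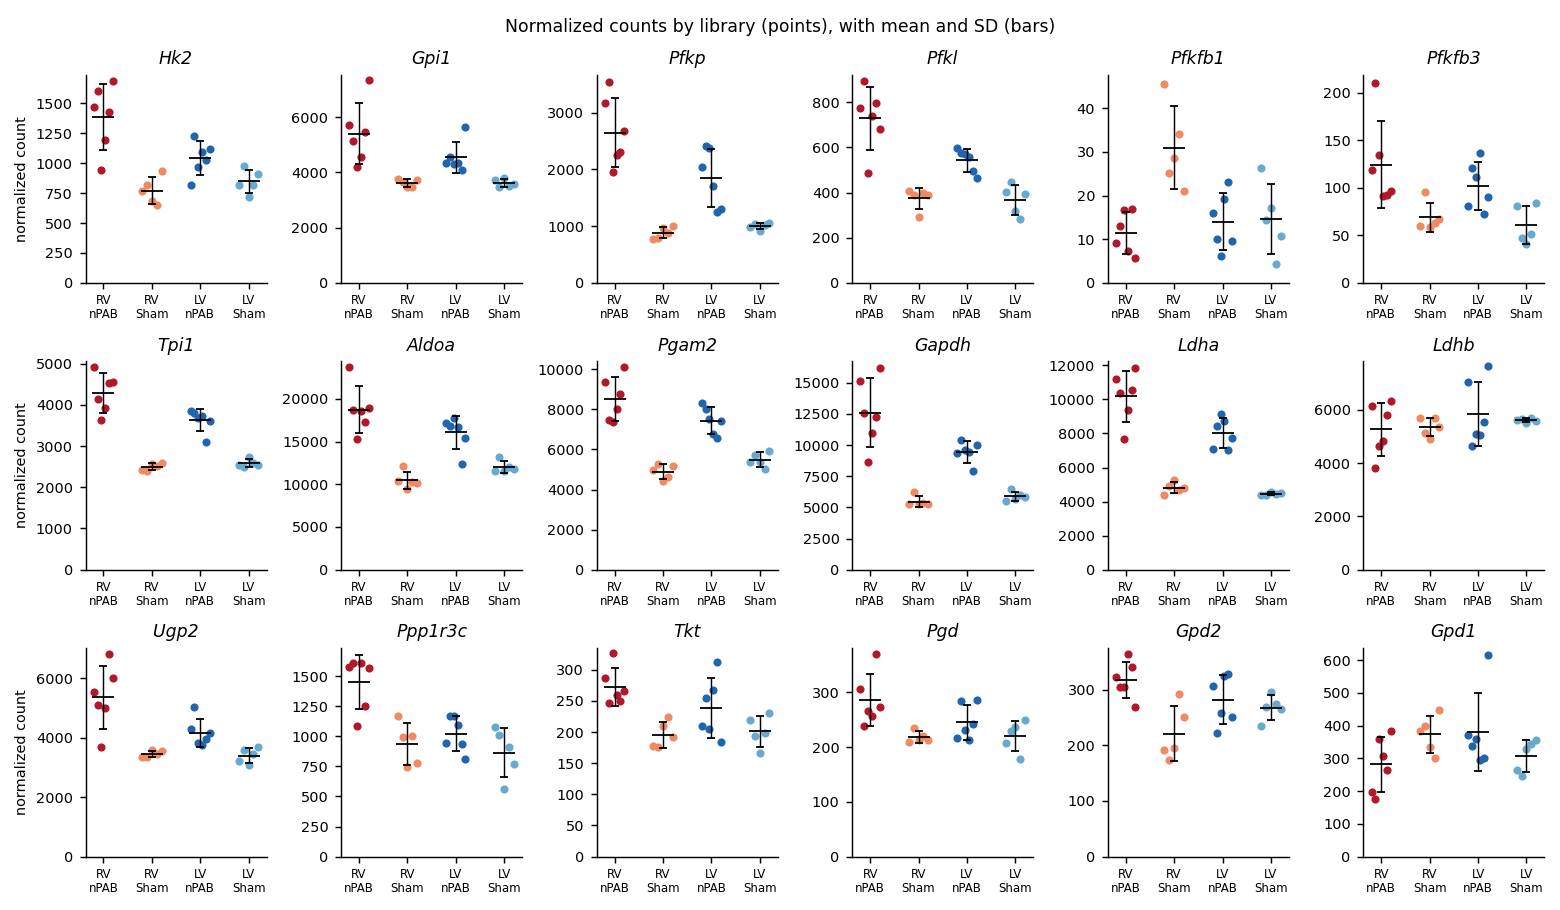
Normalized counts of 18 members, 2 for each role, in each library (points; RV nPAB, RV Sham, LV nPAB and LV Sham from left to right), with group means and SD as bars; each vertical axis starts at 0. Ldha ranged from 7682 to 11857 in RV nPAB and from 4402 to 5258 in RV Sham, whereas the Ldhb groups overlap.

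Of the 7 glycogen members, 4 rose in the RV and 2 in the LV. The 4 act in glycogen synthesis, and in the RV the genes of the 3 phosphorylases that degrade glycogen did not pass. UDP-glucose pyrophosphorylase (Ugp2), which makes the glucose donor for glycogen, had 3682 to 6829.5 (median 5318) normalized counts in RV nPAB, against 3345, 3368, 3582, 3453 and 3561 in RV Sham. It rose 1.52-fold (log2 0.61 ± 0.11 SE, adjusted p = 0.00115), without overlap. In the LV it had 3744 to 5031 (median 4064) in nPAB and 3214, 3596, 3078, 3443 and 3685 in Sham. The LV rise of 1.22-fold (log2 0.29 ± 0.080 SE, adjusted p = 0.0282) kept the groups apart narrowly, and was lost on leaving out Sham mouse 9, 11 or 12 (adjusted p 0.0578 to 0.0838).

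Ppp1r3c, which targets protein phosphatase 1 to glycogen, had 1085 to 1615 (median 1573) normalized counts in RV nPAB, against 1174, 992, 746, 1005 and 781 in RV Sham. It rose 1.55-fold (log2 0.63 ± 0.13 SE, adjusted p = 0.00208), with 1 Sham library within the nPAB range. In the LV, Ppp1r3c had 811 to 1174 (median 1020.4) in nPAB and 1076, 1011, 564, 910.3 and 769 in Sham, overlapping values that did not pass (log2 fold change 0.26 ± 0.15 SE, adjusted p = 0.299).

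Muscle glycogen synthase (Gys1) rose 1.34-fold (log2 0.42 ± 0.12 SE, adjusted p = 0.0171) in the RV, a call lost without Sham mouse 11 (adjusted p = 0.0525). In the LV it did not pass (log2 fold change 0.28 ± 0.12 SE, adjusted p = 0.150) except without nPAB mouse 10 (adjusted p = 0.0371). The branching enzyme (Gbe1) rose 1.64-fold (log2 0.72 ± 0.15 SE, adjusted p = 0.00265) in the RV and 1.35-fold (log2 0.43 ± 0.11 SE, adjusted p = 0.0193) in the LV. The LV call of Gbe1 was lost without Sham mouse 9 (adjusted p = 0.0608). In the RV the muscle and brain phosphorylases Pygm and Pygb did not pass, with a log2 fold change of -0.23 ± 0.11 (SE, adjusted p = 0.126) and a log2 fold change of -0.25 ± 0.13 (SE, adjusted p = 0.182), and Pygm passed only without nPAB mouse 10 (adjusted p = 0.0437). The LV estimates of both were near 0.

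Liver phosphorylase (Pygl) did not pass in the RV (log2 fold change -0.14 ± 0.42 SE, adjusted p = 0.857) or the LV (log2 fold change -0.52 ± 0.40 SE, adjusted p = 0.464) and its Sham mice were widely spread. In RV Sham it had 110.5, 402, 364, 97.3 and 420.2 normalized counts in mice 9 to 13 in order, and in LV Sham 94.5, 395, 344, 92.5 and 270.2. Mice 9 and 12 were the lowest in both ventricles. The nPAB libraries ran from 160.1 to 269 in the RV and from 112 to 196 in the LV.

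Pentose phosphate genes showed small changes, with 2 of 4 called in the RV and none in the LV. Transketolase (Tkt), of the non-oxidative part, had 247 to 327 (median 262) normalized counts in RV nPAB, against 177, 175, 209.6, 224 and 192 in RV Sham. It rose 1.39-fold (log2 0.47 ± 0.12 SE, adjusted p = 0.00752) without overlap. Tkt in the LV had 184 to 313 (median 232) in nPAB and 219, 193, 166, 198 and 230.4 in Sham, which overlapped and did not pass (log2 fold change 0.23 ± 0.15 SE, adjusted p = 0.355).

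6-Phosphogluconate dehydrogenase (Pgd), an NADPH-producing step, had 238 to 371 (median 269.9) normalized counts in RV nPAB, against 209, 236, 213, 221 and 214 in RV Sham. The groups were narrowly apart and the rise was 1.29-fold (log2 0.37 ± 0.12 SE, adjusted p = 0.0359), a call lost in 9 of 21 alternatives, among them leaving out any of Sham mice 9, 11, 12 or 13 or nPAB mice 5, 10 or 11 (adjusted p 0.0503 to 0.0861). The LV values were 214 to 285 (median 237) in nPAB and 207, 229.5, 238, 179 and 249.7 in Sham (log2 fold change 0.15 ± 0.13 SE, adjusted p = 0.498). G6pdx, the entry enzyme, and transaldolase (Taldo1) did not pass in the RV (log2 fold change 0.14 ± 0.19 SE, adjusted p = 0.655 and log2 fold change -0.037 ± 0.11 SE, adjusted p = 0.855) or in the LV (log2 fold change 0.018 ± 0.19 SE, adjusted p = 0.967 and log2 fold change 0.16 ± 0.12 SE, adjusted p = 0.419).

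The 2 glycerol phosphate enzymes took opposite signs in the RV. Mitochondrial Gpd2 had 269 to 365 (median 313) normalized counts in RV nPAB, against 192, 174, 194, 293 and 250.01 in RV Sham. It rose 1.46-fold (log2 0.54 ± 0.14 SE, adjusted p = 0.00791), with 1 Sham library inside the nPAB range. LV values of Gpd2 were 223 to 328 (median 283) in nPAB and 234, 269, 296, 273 and 266 in Sham, overlapping values that did not pass (log2 fold change 0.062 ± 0.12 SE, adjusted p = 0.805).

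Cytosolic Gpd1 had 176 to 384 (median 285) normalized counts in RV nPAB, against 382, 400.1, 334, 302 and 447 in RV Sham. The groups overlapped and the difference did not pass (log2 fold change -0.45 ± 0.19 SE, adjusted p = 0.0968), although it did without nPAB mouse 7 or 11 (adjusted p = 0.0491 and 0.0364). In the LV Gpd1 had 296 to 614 (median 348) in nPAB and 266, 246, 329, 343 and 356 in Sham (log2 fold change 0.27 ± 0.17 SE, adjusted p = 0.338), with mouse 11 standing above the rest.

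The libraries did not contribute evenly. Of the 23 members that rose in the RV, mouse 7 had the lowest nPAB value in 17, and of the 15 that rose in the LV, mouse 10 had the lowest in 12. The RV count of higher members was 23 without mouse 7, and the LV count was 16 without mouse 10.

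Levels of different genes were compared per length, in transcripts per 1000000 (TPM), computed from the recovered reads and the annotated exon length. That length merges all annotated exons of a gene and can exceed its longest transcript. The 2 lengths were 3310 and 1815 bases for Ldha, 8532 and 4278 for Hk1, and 13401 and 8681 for Pfkp. The order of genes and the isoform shares given below depend on this choice of length. The 19 genes of glycolysis without the phosphofructokinase 2 enzymes summed to 11952 ± 995 TPM in RV nPAB and 8981 ± 361 TPM in RV Sham, and to 11078 ± 654 TPM in LV nPAB and 9481 ± 270 TPM in LV Sham (SD, n = 6 for nPAB and n = 5 for Sham). The lowest nPAB sum was above the highest Sham sum in both ventricles. The 7 glycogen genes summed to 1054 ± 72.3 TPM in RV nPAB and 952 ± 49.0 TPM in RV Sham, and the 4 pentose phosphate genes to 82.2 ± 9.63 and 84.9 ± 7.69 TPM in the same groups, with overlap in both branches. In RV Sham the order began with Eno3 at 2769 TPM, then Pgam2 at 1894, Aldoa at 1174, Ldhb at 1110.4 and Ldha at 473 TPM; Aldoa and Ldhb overlapped, as did Ldha and Gapdh. In RV nPAB Pgam2 (2931 TPM) and Eno3 (2790 TPM) overlapped at the top, followed by Aldoa (1868 TPM) and by Ldhb, Ldha and Gapdh, neighbours with overlapping ranges.

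The balance between isoforms of the same step shifted. The test was the exact two-sided permutation test over mice on the log2 ratio of normalized counts, with 462 splits, a smallest possible p of 0.00216, and Benjamini-Hochberg adjustment over 18 ratios (9 per ventricle). In the RV 7 ratios passed and in the LV 4.

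Among lactate dehydrogenase transcripts per length, Ldha made up 48.0% ± 4.30 in RV nPAB and 29.9% ± 2.70 in RV Sham, and 40.0% ± 6.64 in LV nPAB and 27.4% ± 0.584 in LV Sham (SD, n = 6 and 5). The log2 ratio of Ldha to Ldhb was higher by 1.12 in the RV and by 0.81 in the LV (exact permutation, adjusted p = 0.0130 and 0.0167). Pfkp made up 25.5% ± 5.85 of phosphofructokinase 1 transcripts in RV nPAB and 10.6% ± 1.38 in RV Sham, and 18.8% ± 5.27 in LV nPAB and 11.5% ± 0.580 in LV Sham. By this measure the muscle form Pfkm still made up the most, 60.4% ± 7.96 in RV nPAB and 80.4% ± 1.37 in RV Sham. That order depends on the lengths used, 13401 bases for Pfkp and 3340 for Pfkm. In normalized counts, Pfkp on average exceeded Pfkm in RV nPAB (mean log2 ratio 0.74 ± 0.51, SD). In RV Sham it lay below Pfkm (-0.93 ± 0.21, SD). The log2 ratio of Pfkp to Pfkm was higher by 1.68 in the RV and 0.85 in the LV (exact permutation, adjusted p = 0.0130 and 0.0216), and that of Pfkl to Pfkm by 1.06 and 0.59 (adjusted p = 0.0130 and 0.0195).

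Hk2 made up 60.1% ± 4.36 of the Hk1 and Hk2 sum in RV nPAB and 49.3% ± 2.42 in RV Sham (exact permutation, adjusted p = 0.0130, difference in the log2 ratio of Hk1 to Hk2 -0.64). In the LV Hk2 made up 55.4% ± 5.63 in nPAB and 51.9% ± 1.02 in Sham, and the ratio did not pass (exact permutation, adjusted p = 0.315) except without nPAB mouse 5 (adjusted p = 0.0159). Among the enolase transcripts, Eno1 made up 1.78% ± 0.409 in RV nPAB and 1.21% ± 0.120 in RV Sham, with a log2 ratio of Eno1 to Eno3 higher by 0.54 in the RV and 0.39 in the LV (exact permutation, adjusted p = 0.0130 in each). The ratios of Aldoc to Aldoa and of Pgam1 to Pgam2 were higher in the RV (0.62 and 0.61 on the log2 scale, exact permutation, adjusted p = 0.0496 each), and each call was lost in 11 of 14 alternatives. The phosphorylase ratios did not pass in either ventricle. Without mice 6 and 7, 5 ratios passed in the RV and 4 in the LV, those of Aldoc to Aldoa and of Pgam1 to Pgam2 being lost (adjusted p = 0.169 and 0.157). Whether a ratio changed more in the RV than in the LV was not tested.

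**Figure D3:**
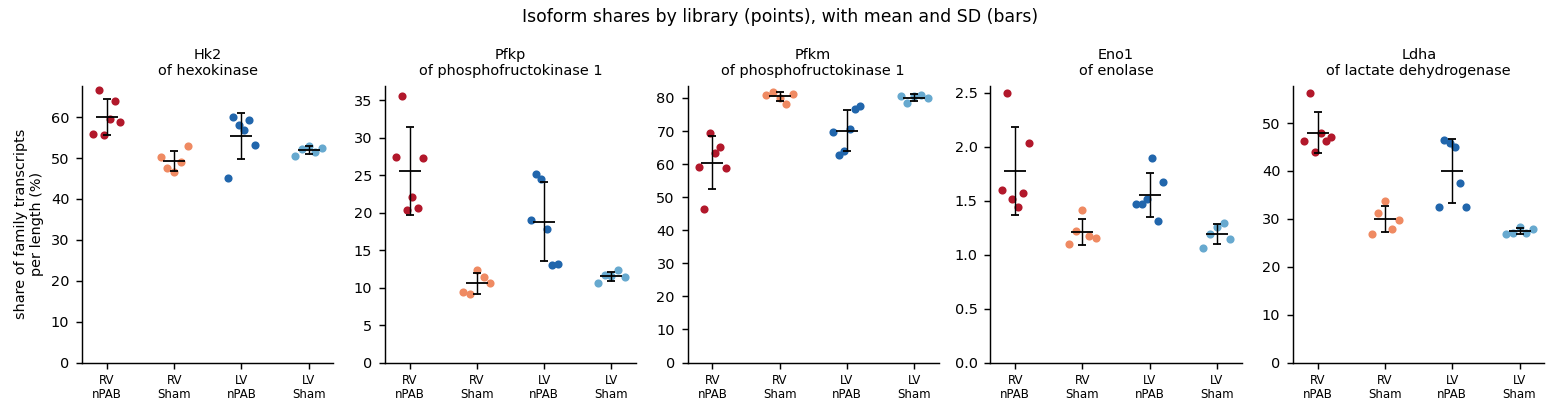
Share of each named isoform in the summed TPM of its enzyme family (percent, axes from 0) in each library (points), with group means and SD as bars, RV nPAB, RV Sham, LV nPAB and LV Sham from left to right. Ldha and Pfkp shares are higher in nPAB than in Sham in both ventricles, and the Pfkm share is lower.

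Whether the RV responded more than the LV was tested on the difference between RV and LV within each mouse. With limma, 0 of 35 members passed, and 1 gene of 13364 (0.00748%) did. The median estimate of the RV response minus the LV response was 0.24 over the members and 0.012 over all genes, and 12 of 35 members had an unadjusted p under 0.05, against 11.0% of all genes. Of the 12, 9 were positive (Hk2, Pfkp, Aldoa, Aldoc, Tpi1, Gapdh, Pgam1, Pgam2 and Gpd2) and 3 negative (Pfkfb1, Pygb and Gpd1). Without mice 6 and 7 the median was 0.37, and again no member passed.

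Tests on the recovered reads called more. edgeR called 158 genes, and 4 members, Hk2, Pfkp, Aldoa and Gapdh, had the larger response in the RV, against 0.606% of all genes. DESeq2 called 251 of the 9477 genes to which it gave an adjusted p. Of the members, it called Hk2, Pfkp, Aldoa and Pgam2 with a positive difference, against 1.42% of genes, and Pygb and Gpd1 with a negative one, against 1.22%. In the limma fit the Hk2 difference was 0.54 ± 0.16 (SE, adjusted p = 0.281), from a mean log2 RV minus LV of 0.40 ± 0.32 in nPAB mice and -0.15 ± 0.15 in Sham mice (SD). That of Pfkp was 0.73 ± 0.22 (adjusted p = 0.287) and that of Aldoa 0.42 ± 0.12 (adjusted p = 0.280). That of Gpd1 was -0.72 ± 0.24 (adjusted p = 0.324), from -0.44 ± 0.45 in nPAB mice and 0.28 ± 0.36 in Sham mice. Of the 35 members, only Pgam2 had no overlap between nPAB and Sham mice in this measure (0.36 ± 0.11, adjusted p = 0.304), against 0.898% of all genes apart in this direction. The mean RV minus LV values of a group hold a constant offset between the 2 scaled tables, which cancels in the difference between nPAB and Sham.

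Without nPAB mice 6 and 7, an exclusion tried with these tools only once the data were known and leaving 4 nPAB mice, edgeR and DESeq2 each called 10 members with a positive difference (Hk2, Gpi1, Pfkp, Aldoa, Tpi1, Gapdh, Pgam2, Ldha, Ugp2 and Ppp1r3c) and 1 with a negative difference (Gpd1). Over all genes the shares were 1.94% positive and 1.72% negative with edgeR, and 2.36% and 2.13% with DESeq2. Pygb was no longer called by DESeq2. With limma the Hk2 difference was then 0.65 (adjusted p = 0.131), from a mean log2 RV minus LV of 0.51 ± 0.30 in 4 nPAB mice and -0.15 ± 0.15 in 5 Sham mice (SD). The limma difference of Pfkp was 0.93 (adjusted p = 0.0779), that of Aldoa 0.54 (adjusted p = 0.0665) and that of Gpd1 -0.71 (adjusted p = 0.258).

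**Figure D4:**
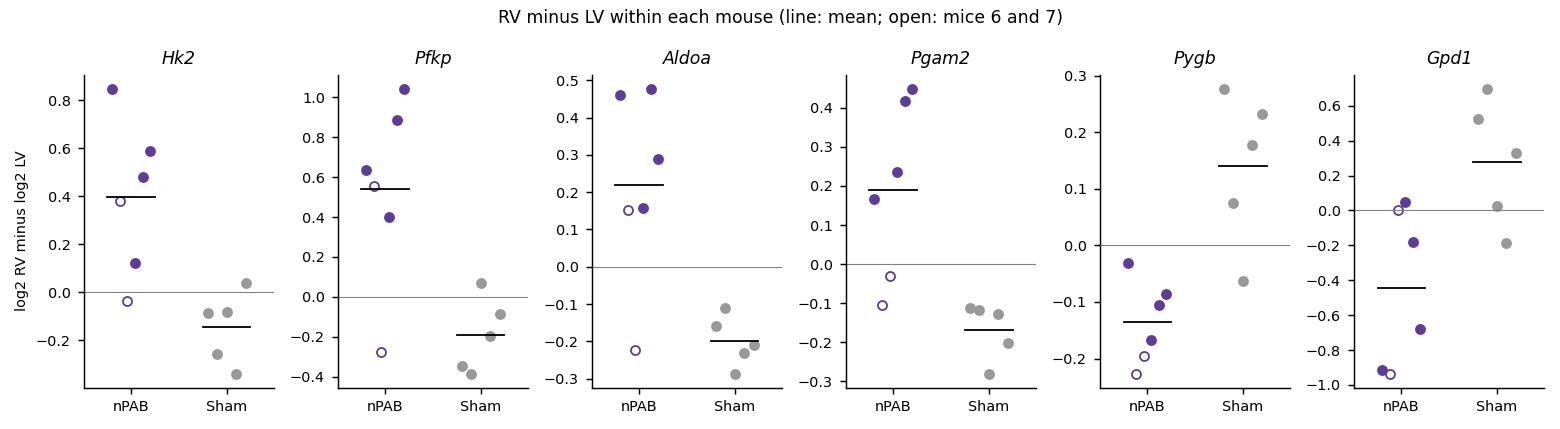
Log2 RV minus log2 LV normalized count within each mouse for the 6 members called by DESeq2, nPAB left and Sham right, with group means as lines; open circles are nPAB mice 6 and 7, whose 2 libraries carry different sex-linked signals. The RV and LV tables are scaled separately, so 0 does not mark equal levels. For Pgam2 all nPAB mice lie above all Sham mice, and for Pygb and Gpd1 the nPAB mean lies below the Sham mean.

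The ventricles of Sham mice were compared on a common scale with the mouse as a block. Of 34 members tested, 3 were lower in the RV and none was higher, against 0.912% of 13701 genes lower and 1.07% higher. Aldoa had 10508 ± 1002 in RV Sham and 12391 ± 627 in LV Sham (SD, n = 5 each, normalized counts on the common scale), a log2 difference of -0.24 ± 0.034 (SE, adjusted p = 4.4e-05). Pgam2 had 4894 ± 367 in RV Sham and 5661 ± 343 in LV Sham, a difference of -0.21 ± 0.040 (adjusted p = 0.00211). Gapdh had 5463 ± 424 in RV Sham and 6053 ± 338 in LV Sham, a difference of -0.15 ± 0.038 (adjusted p = 0.0339). All 5 mice had the lower value in the RV for each of the 3 genes, which were picked by a test on the same values. Of the 34 members tested, 8 were lower in the RV in all 5 mice, against 6.09% of all genes. Pfkfb1 was the 1 member higher in the RV in all 5 (log2 difference 1.13, not called), against 5.24% of all genes. All 3 calls were lost without the mouse block and without the variance trend and robust options, and that of Gapdh on leaving out any 1 mouse (adjusted p 0.0593 to 0.172). Pfkp was lower in the RV only without Sham mouse 11 (log2 difference -0.29, adjusted p = 0.0301). Markers of cell types differed in the same comparison. All 6 fibroblast markers had a positive RV minus LV difference, 4 of them called (median 0.32, summed level 33341 to 43755 in RV Sham and 28678 to 33170 in LV Sham), and all 7 ventricular cardiomyocyte markers a negative one, 2 of them called (median -0.11, 586702 to 688760 in RV Sham and 668164 to 787658 in LV Sham). Their part in the member differences was not tested. The LV Sham libraries also enter the LV comparison, and the RV Sham libraries the RV comparison.

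A further 50 genes of these pathways were examined as a list, of which 33 were abundant enough to test. In the RV 8 were higher, 5 lower and 20 did not pass; in the LV 2 were higher, 2 lower and 29 did not pass. Of all tested genes 11.1% were higher and 10.8% lower in the RV, and 4.76% higher and 4.55% lower in the LV. The list's median log2 fold change was -0.037 in the RV and -0.036 in the LV.

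Muscle fructose bisphosphatase (Fbp2), which runs against phosphofructokinase 1, had 27.7 to 105 (median 80.9) normalized counts in RV nPAB, against 303, 341, 213, 372 and 359 in RV Sham. It fell to 0.214 times the Sham level (log2 -2.22 ± 0.31 SE, adjusted p = 0.000195) in the RV without overlap. LV counts of Fbp2 were 51.9 to 143 (median 91.7) in nPAB and 275, 221, 375, 285 and 348 in Sham, again apart, and fell to 0.304 times the Sham level (log2 -1.72 ± 0.23 SE, adjusted p = 0.000249).

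Glycogenin (Gyg), the primer of glycogen synthesis, had 3679.96 to 5213 (median 4193) normalized counts in RV nPAB and 2547, 2879.8, 3085, 2671 and 2711 in RV Sham. It rose 1.51-fold (log2 0.60 ± 0.087 SE, adjusted p = 0.000103) in the RV without overlap and 1.22-fold (log2 0.28 ± 0.085 SE, adjusted p = 0.0425) in the LV with overlap. The phosphoglucomutases Pgm1 and Pgm2, which link glucose 1-phosphate and glucose 6-phosphate, rose 1.45-fold (log2 0.53 ± 0.10 SE, adjusted p = 0.00120) and 1.61-fold (log2 0.69 ± 0.14 SE, adjusted p = 0.00131) in the RV. Neither passed in the LV (log2 fold change 0.27 ± 0.091 SE, adjusted p = 0.0739 and log2 fold change 0.45 ± 0.16 SE, adjusted p = 0.0889).

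The catalytic subunit of muscle phosphorylase kinase (Phkg1) had 0 to 6.07 (median 2.45) normalized counts in RV nPAB, against 47.8, 16.4, 23.8, 41.8 and 22.3 in RV Sham. It was lower, with a log2 fold change of -3.40 ± 0.61 (SE, adjusted p = 0.000609), on 16 reads in nPAB and 152 in Sham. The normalized ratio of these reads was 0.0850, with a 95% counting interval of 0.0474 to 0.143 that covers counting error only, and Phkg1 overlaps Chchd2 and Sumf2. Stbd1, a glycogen-binding protein, had 38.7 to 82.0 (median 51.4) normalized counts in LV nPAB, against 34.1, 23.0, 2.03, 11.8 and 2.15 in LV Sham. It rose 5.48-fold (log2 2.45 ± 0.57 SE, adjusted p = 0.0132) in the LV and 1.96-fold (log2 0.97 ± 0.30 SE, adjusted p = 0.0248) in the RV.

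In the pentose phosphate branch, 6-phosphogluconolactonase (Pgls) had 408 to 538 (median 438) normalized counts in RV nPAB, against 298, 339.8, 347, 355 and 316 in RV Sham. It rose 1.39-fold (log2 0.47 ± 0.10 SE, adjusted p = 0.00263) in the RV without overlap and did not pass in the LV (log2 fold change 0.24 ± 0.10 SE, adjusted p = 0.150), and it overlaps Fam129c. Ribose 5-phosphate isomerase (Rpia) had 45.7 to 73.9 (median 59.4) in LV nPAB and 132, 105, 133, 81.8 and 108 in LV Sham, where it fell to 0.540 times the Sham level (log2 -0.89 ± 0.20 SE, adjusted p = 0.00911) without overlap; in the RV it did not pass (log2 fold change -0.15 ± 0.25 SE, adjusted p = 0.725). The remaining 6 genes called in the RV were Gaa, Tigar and Bpgm, higher by 0.53, 0.67 and 0.44 on the log2 scale, and Phkb, H6pd and Gpd1l, with log2 fold changes of -0.25, -0.34 and -0.30 (adjusted p 0.0105 to 0.0474).

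**Figure D5:**
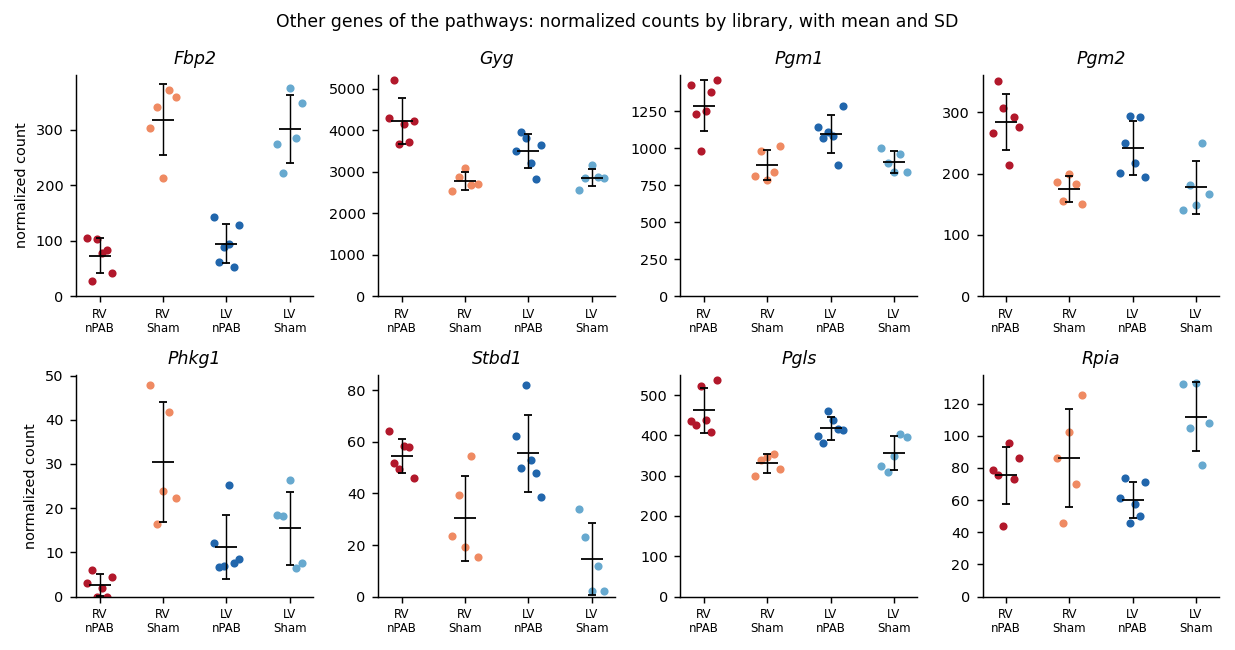
Normalized counts of 8 further pathway genes in each library (points; RV nPAB, RV Sham, LV nPAB and LV Sham from left to right), with group means and SD as bars and axes from 0. All Fbp2 values in nPAB lie below all those in Sham in the same ventricle.

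Some counts may be split with near-identical copies. Of the 50-base windows of the longest transcript, 72.2% for Eno1, 68.0% for Pgk1, 41.5% for Pgam1, 34.4% for Pkm and 27.2% for Gapdh also occur in other annotated genes, and the levels of these genes are uncertain to that extent. The same holds for the Eno1 share and for the ratios of Eno1 to Eno3 and of Pgam1 to Pgam2. Eno3 and Pgam2 had 0% of such windows. Strand use in counting was not stated, and several members overlap a gene on the other strand, among them Pfkp (Pitrm1), Aldoa (Fam57b), Tpi1 (Spsb2), Gapdh (Iffo1), Pfkfb1 (Apex2) and Gys1 (Ruvbl2).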

How the data were processed

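The authors deposited 1 table of normalized counts per ventricle, a signal per gene and library. Per the submitters' processing notes, the tools were cutadapt, featureCounts and DESeq2 on mm10; the aligner, versions and strand setting: not given in the sources used here. Per the labels, libraries were prepared from total RNA with a Revelo kit. The submitters' scaling divides counts by a size factor within each table, so levels are compared only inside a ventricle. In every column the values divided by their smallest step were whole reads for 100% of values within 0.001, and these recovered reads (7109050 to 11334423 per library) gave the depth, TPM, the common RV and LV scale and the edgeR and DESeq2 alternatives. Headers were mapped to samples by the labels, with 0 columns unmapped.

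Genes with a mean of at least 10 normalized counts were tested as log2(value + 1) with limma 3.58.1 (R 4.3.3; variance trend and robust options), and p-values were adjusted over all genes tested by Benjamini-Hochberg; a fold change on this scale understates the change of low genes. The response difference was tested on RV minus LV within each mouse, where a constant offset between the 2 tables cancels. The RV and LV of Sham mice were compared on reads scaled by TMM (edgeR 4.0.16) with the mouse as a block, the pairing coming from the mouse numbers in the labels; deviations of the 2 libraries of a mouse correlated at 0.132 to 0.383 in 10 mice and at 0.0548 in nPAB mouse 7. Alternatives were other pseudocounts (0.5 and 8), no filter or a mean of at least 50, no trend or robust option, other scaling, edgeR, DESeq2 1.42.0, the replicate block, leaving out each mouse, and leaving out nPAB mice 6 and 7; the last was also run with edgeR and DESeq2 for the response difference, a choice made after seeing the data. The fits were tested on simulated data. Replicates are mice, and p-values measure the spread between them; TPM and reads cover counting of the deposited libraries only. Figures were drawn with matplotlib 3.10.9.

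The members and lists were chosen with earlier results of these data known. Per-library values were printed for the 2 members of each role with the smallest p in the RV comparison, for any member called against most of its branch, and for any member called in the response difference, plus Eno2 and Pygl, chosen after their values were seen. Of the 50 further pathway genes, up to 6 called ones with the smallest p in each comparison were described and the remaining called ones given briefly; 1 more gene of the pathways, outside these 50, is not reported here. Genes were named for 49411 RV and 49412 LV identifiers by GENCODE; promoter sequences are from RefSeq.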

Additional observations from a re-analysis of the deposited data

Results flagged for a closer look

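Within each group of 5 or 6 libraries, the highest or lowest library was compared with its nearest neighbour by Dixon's 95% criterion in 144 tests of single members in single groups. The gap passed in 8 tests (5.56%), and chance alone flags about 1 in 20. In RV nPAB, Pfkfb3 was 211 normalized counts in mouse 6, the other 5 libraries being at or below 135. In RV Sham, Pfkl was 291 in mouse 11, Pfkfb3 was 95.4 in mouse 10 and Gapdh was 6216 in mouse 10. In LV nPAB, Gpi1 was 5653 in mouse 11, Tpi1 was 3104 in mouse 10 and Gpd1 was 614 in mouse 11. In LV Sham, Pfkfb2 was 205 in mouse 9, the other libraries being at or below 112. Mouse 11 of LV nPAB and mouse 10 of RV Sham were each flagged in 2 genes.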

How the results depend on the processing

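The count of higher members kept within 1.5 times of 23 in the RV and 15 in the LV under every alternative except the replicate block, and no called change reversed; some uncalled estimates changed sign, such as LV Aldoc (0.25, and -0.21 without nPAB mice 6 and 7). In the RV, lower members numbered 0 with a mean of at least 50, where Pfkfb1 is not tested, and 1 to 2 on leaving out 1 mouse. In the LV, genes called fell to 739 without the trend and robust options and to 668 without nPAB mice 6 and 7. For the response difference, 1 gene was called, against 0 with a pseudocount of 0.5, 35 with a mean of at least 50, 29 without mice 6 and 7, 158 with edgeR, 251 with DESeq2, 5 with no replicate block and 0 to 20 on leaving out 1 mouse (20 without nPAB mouse 7, 11 without nPAB mouse 6); members called were 4 higher with edgeR, and 4 higher and 2 lower with DESeq2. With mice 6 and 7 left out, an alternative chosen after seeing the data, edgeR called 489 genes and DESeq2 565, each with 10 higher and 1 lower members, the cause not being tested. For RV against LV in Sham mice, genes called were 0 without the trend and robust options, 36 with no replicate block and 156 to 246 on leaving out 1 mouse, and members lower were 0 under the first 2. nPAB and Sham share replicate numbers 10 and 11 only, which belong to different animals and whose deviations correlated at -0.045 and -0.082 in the RV and -0.033 and -0.051 in the LV, so they do not pair samples; a fit with the replicate block keeps few libraries for the contrast and gave 262 genes, 11 higher and 0 lower members in the RV, and 29 genes and 0 higher members in the LV. Over all alternatives, single members crossed the threshold 112 times, 71 losing and 41 gaining a call, and isoform ratios 23 times, 22 losing and 1 gaining. Low read counts limit Pfkfb1, Aldoc, Pgam1, Eno2, Phkg1 and Stbd1, and Pfkfb4 was too low to test.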
